A study of Mus musculus with 4 samples.

Results

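The genes described here encode enzymes of cholesterol and fatty acid synthesis, the SREBP transcription factors that control them, and a few proteins that move sterols. They were chosen by name: a list of 34 symbols was matched to the entries of the authors' deposited table, which holds 26815 entries, 15315 of them tested. Of the 34, 33 stood as the only symbol of an entry, and all 33 were tested. Tm7sf2, a sterol reductase, shared an entry with Vps51 and is not counted among the 33. Gene-level comparisons used the 12159 tested genes whose symbol stood alone and occurred once.

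The cells were cortical neural stem cells from E14.5 embryos of CD-1 mice, kept in adherent culture with EGF and bFGF, and poly(A) RNA was sequenced. The cells carried a lentivirus with either a scrambled shRNA (SHC002) or an shRNA against Foxp1 (pLKO.1_sh_ex15), and all were kept under puromycin at 0.5 µg/mL. There were 4 libraries, 2 per shRNA, taken from different passages of purchased cells. Each group carried a single shRNA sequence, so a difference between groups cannot be told apart from an effect of that sequence on other transcripts. The table gives 1 comparison per gene between conditions coded q2 and q1, and neither the labels nor the headers tie a code to an shRNA. Every direction below is that of q2 against q1. No value per library can be shown, and read depth is unknown. Foxp1, the targeted gene (chromosome 6, 98925342 to 99435345, build mm10), was 4.09-fold lower in q2 per the authors' deposited table (Cuffdiff q = 0.00162). Of 8 neural stem cell markers 7 were tested (Nes, Sox2, Vim, Fabp7, Hes5, Sox9 and Msi1), and Prom1 was not.

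Cholesterol is built from acetyl-CoA through the mevalonate pathway, which yields isoprenoids, and then through squalene and a series of sterol intermediates. When sterols in the endoplasmic reticulum are low, the escort protein SCAP carries SREBP precursors to the Golgi for cleavage, and the released factors raise transcription of the whole pathway; INSIG proteins hold SCAP back when sterols are plentiful. SREBP-2 favours the sterol genes and SREBP-1 the fatty acid genes. In the developing brain cholesterol is made locally, and long-chain and unsaturated fatty acids are needed for new membrane.

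Scd2, the stearoyl-CoA desaturase most used in mouse brain, was the only member called at a q under 0.05. Per the authors' deposited table it was 1.74-fold lower in q2, a log2 fold change of -0.80 at a Cuffdiff q of 0.0219. The share of members called, 1 of 33, stood beside 8.96% of the 12159 tested genes. By direction, 1 member was called lower and 0 higher, against 3.9% and 5.06% of all genes. At an unadjusted p under 0.05 there were 6 members, 4 lower and 2 higher, or 18.2%, against 21.5% of all genes. The members' log2 fold changes per the authors' deposited table ran from -0.80 to 0.62, with a median of -0.02 and a middle 50% between -0.34 and 0.17. All tested genes with a finite value had a median of -0.04 and a middle 50% between -0.30 and 0.26. An absolute log2 fold change under 0.5 was found for 27 of 33 members (81.8%) and for 74.0% of all genes.

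Those counts depend on what the comparison could call. The smallest absolute log2 fold change of any called gene with a finite value per the authors' deposited table was 0.63, a 1.55-fold difference. Of the members, 31 lay below that size and 2 above it, Scd2 and Fads2. Of 537 genes with an absolute log2 fold change from 0.6 to 0.7, 15.1% were called, and of 399 from 0.7 to 0.8, 36.8% were. That size is the smallest among Cuffdiff's calls at this threshold and not a fixed limit: Fads1, at 1.52-fold, passed when the same p-values were adjusted over single-symbol entries alone (Benjamini-Hochberg adjusted q = 0.0477). Dividing a gene's log2 fold change by its statistic gives what is here called the implied error, on the assumption that the statistic is the log fold change over its standard error. Its median was 0.31 on the log2 scale over the members and 0.35 over all genes. Cuffdiff's p-values do not follow from that assumption: a normal p from the statistic called 371 of 12090 genes, where Cuffdiff called 1089 of 12159. The implied error is thus a scale for reading the values and not the error behind Cuffdiff's p.

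**Figure D1:**
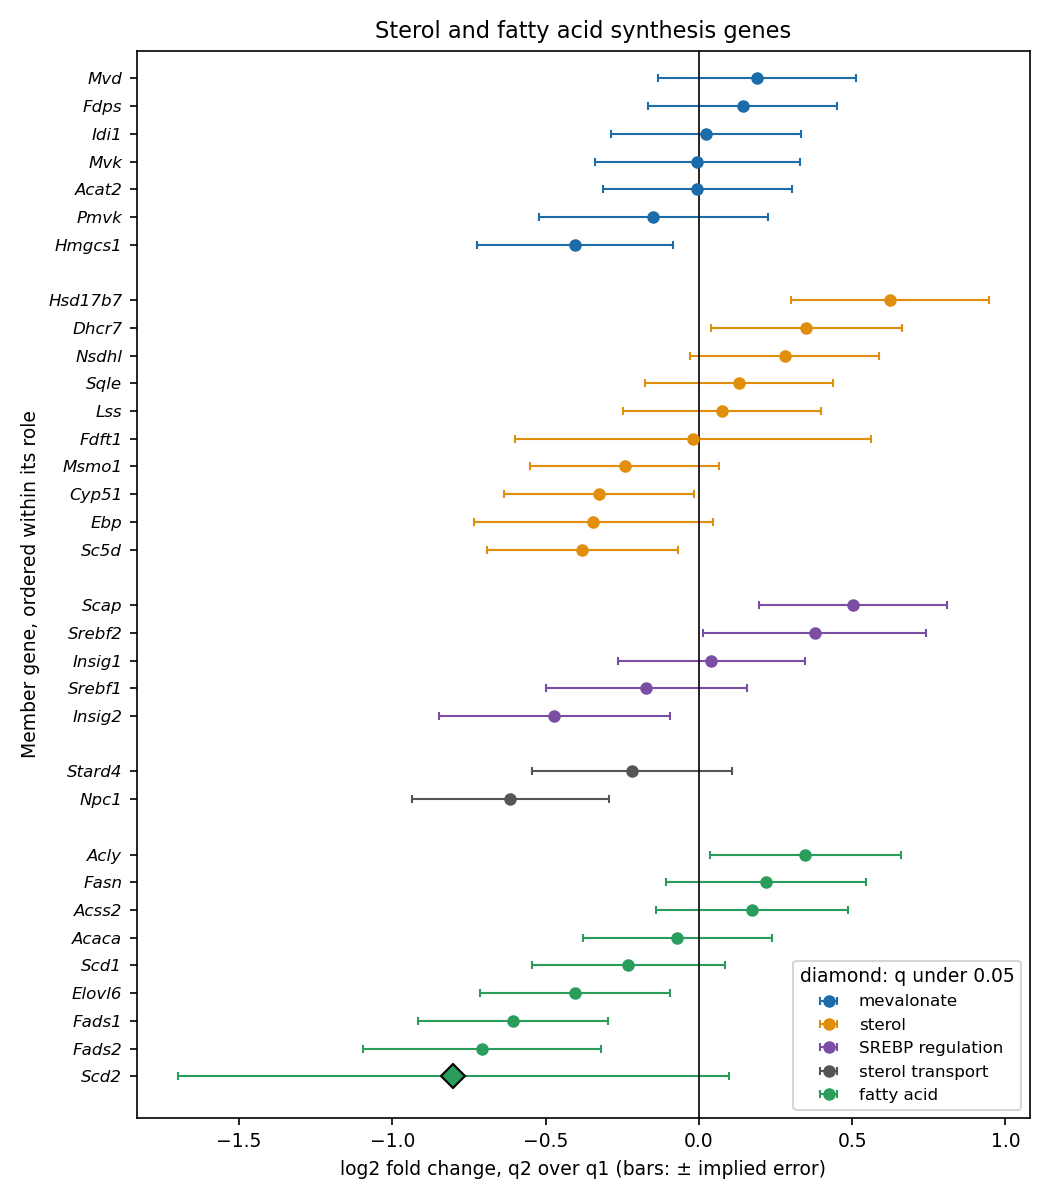
Members of the list (y axis, 33 tested) by their log2 fold change in q2 over q1 per the authors' deposited table (x axis), coloured by role, with bars of 1 implied error to each side. Only Scd2, drawn as a diamond, passed a q of 0.05, and its bar of 0.90 is the widest; the next lowest values are Fads2 at -0.71 and Npc1 at -0.62.

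None of the 7 mevalonate pathway genes was called by Cuffdiff, and none had an unadjusted p under 0.05. Cuffdiff called 8.96% of all genes, so few or no calls would fall in groups as small as the role groups given here. Hmgcs1, which condenses acetoacetyl-CoA with acetyl-CoA to HMG-CoA, had the lowest value of the 7 at -0.40 per the authors' deposited table (implied error 0.32, Cuffdiff q = 0.317). Acat2, the thiolase that makes acetoacetyl-CoA, was at -0.0053 and the kinase Mvk at -0.0046 per the authors' deposited table. The kinase Pmvk stood at -0.15, the isomerase Idi1 at 0.02, the farnesyl diphosphate synthase Fdps at 0.14 and the decarboxylase Mvd at 0.19 per the authors' deposited table. Every value but that of Hmgcs1 lay within 1 implied error of 0, and the median of the group was -0.00464.

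The 10 tested sterol pathway genes, from squalene synthase to Dhcr7, lay on both sides of 0 with a median of 0.03. Hsd17b7, the ketoreductase that acts in C4 demethylation (chromosome 1, 169949537 to 169969205), had the highest value of all members at 0.62 per the authors' deposited table. With an implied error of 0.32 and an unadjusted p of 0.00625, its Cuffdiff q of 0.0715 missed the threshold in that table. Its partners in the same demethylation steps stood apart from each other per the authors' deposited table: the dehydrogenase Nsdhl was at 0.28 and the methyl oxidase Msmo1 at -0.24. Of the enzymes that finish the molecule, Dhcr7, the 7-dehydrocholesterol reductase, was at 0.35, while the isomerase Ebp and the desaturase Sc5d were at -0.34 and -0.38 per the authors' deposited table. Cyp51, the lanosterol demethylase, stood at -0.33, the epoxidase Sqle at 0.13, the cyclase Lss at 0.07 and squalene synthase Fdft1 at -0.02 per the authors' deposited table. None of the 10 was called by Cuffdiff, and 1, Hsd17b7, had an unadjusted p under 0.05. The merged entry of Tm7sf2 and Vps51 was at 0.22 per the authors' deposited table (Cuffdiff q = 0.675).

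Among the 5 regulators, Scap, the escort of the SREBPs, was at 0.50 per the authors' deposited table with an implied error of 0.31, an unadjusted p of 0.0216 and a Cuffdiff q of 0.160. Srebf2, which encodes SREBP-2, was at 0.38 (implied error 0.36, Cuffdiff q = 0.44) and Srebf1, which encodes SREBP-1, at -0.17 (implied error 0.33, Cuffdiff q = 0.763) per the authors' deposited table. The retention factor Insig1, itself a target of the SREBPs, was at 0.04 per the authors' deposited table, with an implied error of 0.31 and a Cuffdiff q of 0.948. Its relative Insig2 was at -0.47 per the authors' deposited table (implied error 0.38, Cuffdiff q = 0.326). None of the 5 was called by Cuffdiff, and their values in q2 ran in both directions. Mir33, the microRNA gene within Srebf2, was not tested by the authors.

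Of the sterol transport members, Npc1, which exports cholesterol from lysosomes, was at -0.62 per the authors' deposited table (implied error 0.32, unadjusted p = 0.0058, Cuffdiff q = 0.0675). Stard4, a soluble sterol carrier, was at -0.22 per the authors' deposited table (Cuffdiff q = 0.668). Npc1 shared its locus with 3110002H16Rik, which was at 0.05 per the authors' deposited table with an implied error of 1.13. The 4 other members whose locus was shared with another tested entry were Fdft1 (with Ctsb), Lss, Srebf1 (with Rai1) and Acss2. Counting any other entry, tested or not, 7 members overlapped one, Fads1 and Srebf2 among them. As the use of strand in counting is not given, reads from overlapping genes cannot be assigned with certainty.

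The 9 fatty acid genes had a median of -0.23, with 6 values below 0 and 3 above. The enzymes that supply and join the building blocks stood close to 0 or above it per the authors' deposited table: Acly, which makes cytosolic acetyl-CoA from citrate, was at 0.35, the synthase Fasn at 0.22, the acetate-activating Acss2 at 0.17 and the carboxylase Acaca at -0.07. None of these 4 was called by Cuffdiff, nor did any have an unadjusted p under 0.05. The enzymes that lengthen and desaturate the chain were all below 0. Elovl6, which elongates palmitate to stearate, was at -0.40 per the authors' deposited table (Cuffdiff q = 0.300). Fads1, the delta-5 desaturase of polyunsaturated fatty acids, was at -0.61 with an implied error of 0.31 and an unadjusted p of 0.0045 per the authors' deposited table. Its Cuffdiff q of 0.0558 in that table was the nearest to the threshold from above. Fads2, the delta-6 desaturase, was at -0.71 (implied error 0.39, unadjusted p = 0.00995, Cuffdiff q = 0.097) per the authors' deposited table. Scd1, which like Scd2 makes oleate from stearate, was at -0.23 per the authors' deposited table (implied error 0.31, Cuffdiff q = 0.629). The difference between Scd2 and Scd1 was itself not tested.

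The call of Scd2 (chromosome 19, 44293676 to 44306862) rested on a p-value that stood apart from its statistic. Its statistic was -0.89 per the authors' deposited table, and its implied error of 0.90 was the largest of any member, where the next was 0.58 for Fdft1. The unadjusted p of 0.00125 per the authors' deposited table is nonetheless the smallest of any member. Among the other 549 genes with an absolute statistic within 0.05 of that of Scd2, the unadjusted p ranged from 0.0438 to 0.762 with a median of 0.207. The isomerase gene Ebp, with a statistic of -0.88, had a p of 0.21 per the authors' deposited table. Conversely, the other 101 genes with a p between 0.001 and 0.0015 had absolute statistics of at least 2.16. Of 1083 called genes with a finite fold change, Scd2 was the 1 with an absolute statistic under 1; the next lowest was 1.56, for Arpp21. When p was read from the statistic by the relation that holds over all tested genes, Scd2 had a p of 0.191 and an adjusted q of 0.476 and lost its call, while 1214 genes were called in all. With a normal p from the statistic the Benjamini-Hochberg adjusted value for Scd2 was 0.955. Why the p and the statistic of Scd2 differ was not tested.

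**Figure D2:**
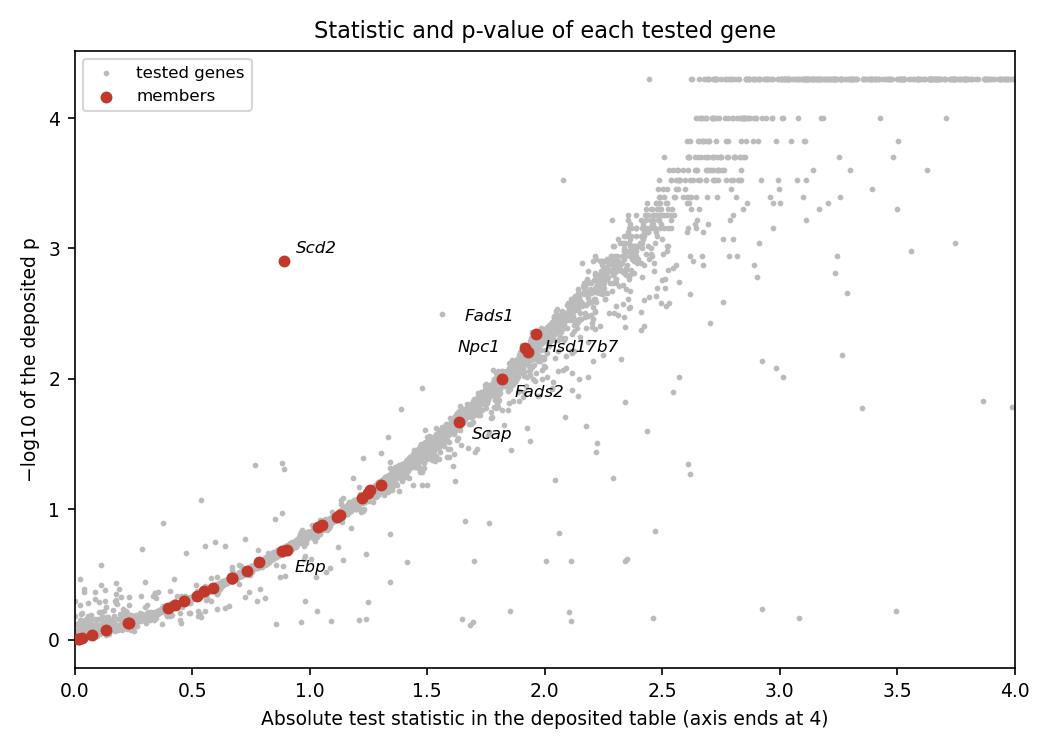
Absolute test statistic (x axis) against −log10 of the unadjusted p (y axis) per the authors' deposited table for all tested genes with a finite value (grey) and for the 33 members (red). The members follow the band of other genes except for Scd2, which has a statistic of -0.89 and a p of 0.00125 where Ebp, at -0.88, has a p of 0.21.

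Both desaturase families form gene clusters on chromosome 19. The 4 members with an entry of their own there all had values below 0, as had 53.6% of all tested genes with a finite value. The merged entry of Tm7sf2 and Vps51, on the same chromosome, was at 0.22 per the authors' deposited table. Fads1 (10182888 to 10196872) and Fads2 (10062711 to 10101928) lie side by side, with no other tested entry between them. Fads3 appeared as 2 entries with the same coordinates, at 0.42 (Cuffdiff q = 0.451) and -0.69 (Cuffdiff q = 0.918) per the authors' deposited table, the latter with an implied error of 3.79. On the far side of Fads1, the flap endonuclease gene Fen1 was at 0.58 (Cuffdiff q = 0.0917), Tmem258 at -0.11 (Cuffdiff q = 0.865) and the myelin regulator Myrf at 1.20 (Cuffdiff q = 0.0118) per the authors' deposited table. Next to Scd2, its relative Scd4 (44333326 to 44346743) was called lower in q2 by a larger amount, 6.96-fold, per the authors' deposited table (implied error 0.70, log2 fold change -2.80, Cuffdiff q = 0.00162). With the GC trend described below removed and p read from the statistic, Myrf was at 0.94 and no longer passed (adjusted q = 0.0701), while Scd4 kept its call at -2.73; with p read in that way alone Myrf passed, at an adjusted q of 0.0112. Scd4 and the neighbours of Fads1 were picked out after their values were seen and are not in the list of 34.

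Reads from near-identical copies or from overlapping genes could be split between genes by the authors' counting. The longest coding transcript of each gene in GENCODE M21 was therefore cut into overlapping windows of 50 bases. The windows were searched for in the transcripts of all other genes on either strand, so genes that overlap at the same locus count as well as copies. Of the 34 listed genes 16 shared no window and 13 shared up to 25% of theirs. The other 5 shared more: Fdps 86.4%, Acaca 52.6%, Acat2 45.9%, Fdft1 30.7% and Idi1 30.5%. On this count their values may be the least certain. The annotation used by the authors is not given, and whether reads of these genes were split in their counting was not tested. For Acat2 the partner was its neighbour Acat3, which was at 0.13 per the authors' deposited table (Cuffdiff q = 0.954). For Fdft1 the largest part, 19.9%, was shared with Ctsb, which has the same locus. Scd2 shared 4.01% of its windows, 2.68% with Scd1, and Scd4 shared 6.32%. Fads1 and Hsd17b7 shared none, Fads2 0.161%, Scap 13.1% and Npc1 8.95%.

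Values in the whole comparison moved with the GC content of transcripts. Over 10 equal bins of all genes ranked by GC content, the median log2 fold change went from -0.31 in the lowest bin to 0.30 in the highest. The members had transcripts of 40.8 to 59.8% GC, with a median of 50.8% against 50.6% for all genes. Scap (56.7% GC) and Srebf2 (58.0% GC) lay among GC-rich transcripts, and Hmgcs1 (43.3% GC), Npc1 (46.5% GC) and Insig2 (46.5% GC) among GC-poor ones. With the trend removed, by subtracting the median of genes of like GC content, Scap went from 0.50 to 0.31, Srebf2 from 0.38 to 0.12, Hmgcs1 from -0.40 to -0.13 and Npc1 from -0.62 to -0.46. Other members moved away from 0: Srebf1 went from -0.17 to -0.45, Scd1 from -0.23 to -0.42, Pmvk from -0.15 to -0.32, Mvk from -0.0046 to -0.29, Idi1 from 0.02 to 0.30 and Insig1 from 0.04 to 0.22. The sign turned for 4 members, Fasn (0.22 to -0.05), Mvd (0.19 to -0.09), Msmo1 (-0.24 to 0.02) and Acat2 (-0.0053 to 0.05). In all, 17 members came nearer to 0 and 12 moved farther from it with their sign kept. Hsd17b7 and Fads1, near the middle of the range, went to 0.69 and -0.67. Both then passed, with Benjamini-Hochberg adjusted q of 0.0419 and 0.0373 when p was read from the statistic, where 7.37% of 11562 genes were called; p read in that way without the removal called 0 members. Fads2 stood at -0.72 (adjusted q = 0.104) and Scd2 at -0.76 (adjusted q = 0.659) in the same fit, with Cuffdiff's own p no longer in use. The median of the members was -0.08. Whether GC content accounts for any member's value was not tested.

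**Figure D3:**
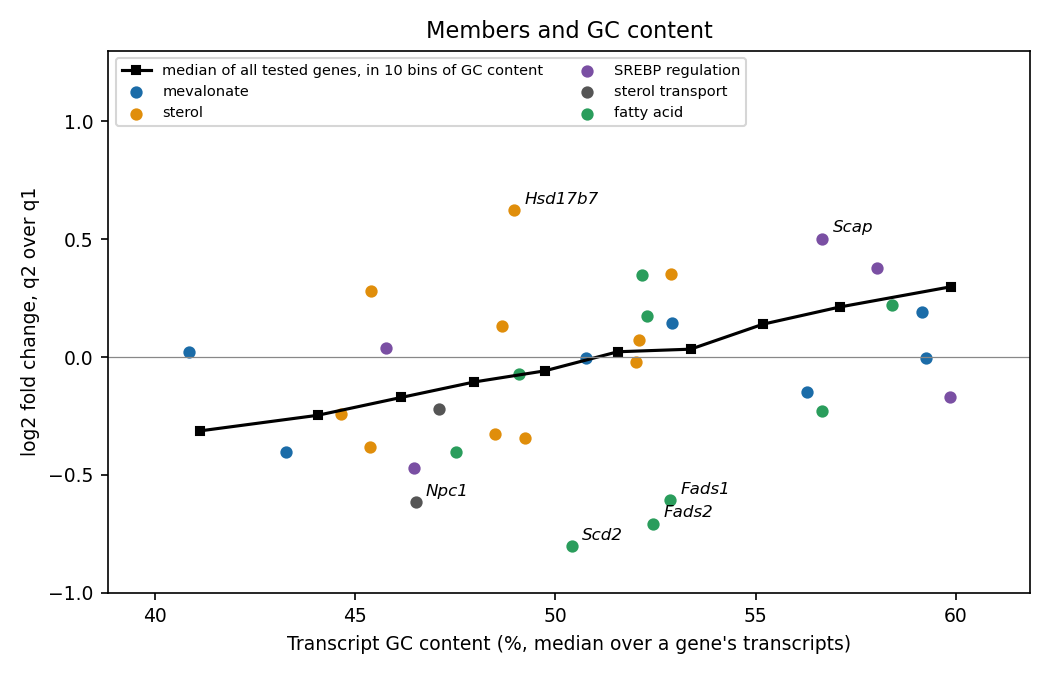
Transcript GC content in percent (x axis) against log2 fold change in q2 over q1 per the authors' deposited table (y axis) for the 33 members, coloured by role, with the median of all tested genes in 10 bins of GC content in black. Scap at 0.50 and Npc1 at -0.62 lie on the same side of 0 as the line at their GC content, while Hsd17b7 at 0.62 and Fads1 at -0.61 lie near the middle of the GC range.

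Some short motifs were more frequent in the members' promoters than in all promoters, which were not matched for expression or GC content. Whether the excess is particular to these genes was not tested. RefSeq promoter sequences (build GRCm38.p6, 250 bases before to 50 after each start) were matched by symbol for 26 of the 34 genes, with 34 promoters in all, and set beside all 32851 promoters of that table. The CCAAT box, the letters of which NF-Y binds, was present on either strand in 64.7% of member promoters and in 37.4% of all promoters. The GC box GGGCGG, bound by Sp1, was present in 76.5% against 35.7%. Both factors are textbook partners of the SREBPs. The E-box CACGTG was present in 17.6% against 7.15%, and the sterol regulatory element, searched as TCACNCCAC, in 1 of 34 (2.94%) against 1.24%. None of the 4 motifs contains another, all were searched on both strands, and a match is a description of the letters only. Only exact matches were counted, so elements that differ from these letters were missed.

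The bases before the start are shown for 3 members. Hmgcs1 is the member with an exact match to the sterol regulatory element. Hsd17b7 and Fads2 are those with the highest and the lowest log2 fold change among members with a promoter in the table. Capitals mark the 4 motifs on either strand. Hmgcs1 (chromosome 13, 119690101 to 119690350, plus strand) holds the element TCACCCCAC from base 137 to base 129 before the start, with 3 CCAAT boxes and 2 GC boxes. Hsd17b7 (chromosome 1, 169969206 to 169969455, minus strand) holds 1 E-box, 3 CCAAT boxes and 3 GC boxes. Fads2 (chromosome 19, 10101504 to 10101753, minus strand) holds 1 GC box and none of the other 3 motifs. Its RefSeq start lies inside the authors' locus, while those of the other 2 genes lie at its edge.
Hmgcs1: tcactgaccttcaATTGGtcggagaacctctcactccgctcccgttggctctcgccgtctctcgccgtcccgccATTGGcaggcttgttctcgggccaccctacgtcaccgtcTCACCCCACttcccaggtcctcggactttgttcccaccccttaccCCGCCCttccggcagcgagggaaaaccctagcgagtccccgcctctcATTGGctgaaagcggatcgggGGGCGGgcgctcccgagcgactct
Hsd17b7: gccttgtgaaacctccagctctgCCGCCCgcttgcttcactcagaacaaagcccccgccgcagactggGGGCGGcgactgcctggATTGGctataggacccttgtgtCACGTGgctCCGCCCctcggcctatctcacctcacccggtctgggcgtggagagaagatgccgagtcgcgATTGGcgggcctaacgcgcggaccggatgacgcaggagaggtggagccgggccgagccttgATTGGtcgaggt
Fads2: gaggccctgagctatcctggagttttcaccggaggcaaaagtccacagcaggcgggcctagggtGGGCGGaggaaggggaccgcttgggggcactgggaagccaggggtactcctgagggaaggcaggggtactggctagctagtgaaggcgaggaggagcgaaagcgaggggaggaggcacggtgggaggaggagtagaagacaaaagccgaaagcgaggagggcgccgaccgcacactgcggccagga

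Beside these promoters stand different values in q2. Hmgcs1, with its sterol regulatory element, was at -0.40, Hsd17b7 at 0.62 and Fads2 at -0.71 per the authors' deposited table, and none of the 3 was called by Cuffdiff. Of the other members with an E-box, Scap was at 0.50, Dhcr7 at 0.35, Insig1 at 0.04 and Sc5d at -0.38 per the authors' deposited table. Members with the same motif thus lay on both sides of 0.

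Lists of neighbouring lipid pathways were read the same way. Cuffdiff called 8.96% of all genes, and 21.5% had an unadjusted p under 0.05, so lists of this size would hold few calls at those shares. Of 10 genes of the isoprenoid branches, which lead from farnesyl diphosphate to dolichol, ubiquinone and prenylated proteins, Cuffdiff called 0, and 0 had an unadjusted p under 0.05 (median -0.17). Of 12 genes that process or degrade the SREBP machinery Cuffdiff called 0, with 1 at an unadjusted p under 0.05, Lpin1 at -0.55 per the authors' deposited table (Cuffdiff q = 0.106). The proteases that cleave the SREBPs were at 0.23 (Mbtps1) and 0.30 (Mbtps2) per the authors' deposited table. The 16 tested genes of sterol uptake, storage and efflux had a median of 0.09 (-0.03 with the GC trend removed). Of the 16, 1 was called lower and 0 higher, against 3.9% and 5.06% of all genes. The gene called was Abca1, the cholesterol efflux pump, 1.99-fold lower in q2 per the authors' deposited table (implied error 0.32, log2 fold change -0.99, Cuffdiff q = 0.00162). Mylip, like Abca1 a target of the sterol-sensing LXR receptors, was at 1.01 per the authors' deposited table and was not called (implied error 0.64, Cuffdiff q = 0.192).

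The list of fatty acid activation, elongation and supply lay lower, with a median of -0.41 against -0.04 for all genes. Of 18 tested values 14 were below 0 (77.8%, against 53.6% of all genes with a finite value). Of the 18, 2 were called lower and 0 higher (3.9% and 5.06% of all genes). An unadjusted p under 0.05 was found for 10 (55.6%, against 21.5% of all genes), 9 lower and 1 higher. The higher one was Acsl1, at 0.63 per the authors' deposited table (Cuffdiff q = 0.167). Elovl1 at 0.40 and Acsl5 at 0.39 also lay above 0 per the authors' deposited table, and neither was called. Acsl4, the acyl-CoA synthetase that prefers arachidonate, was 2.14-fold lower (Cuffdiff q = 0.00162) and Acsl6, which acts on docosahexaenoate, 1.88-fold lower (Cuffdiff q = 0.0238) in q2 per the authors' deposited table. After removal of the GC trend, with p read from the statistic, 2 of the 15 genes with a GC value were again called lower: Acsl6 at -0.97 and the synthetase Acsbg1, which passed there at -0.79 (adjusted q = 0.0179) and not by Cuffdiff (q = 0.101), while Acsl4 at -0.72 did not pass (adjusted q = 0.0573). The elongases of polyunsaturated chains, Elovl2 and Elovl5, were at -0.60 (Cuffdiff q = 0.0806) and -0.37 (Cuffdiff q = 0.375) per the authors' deposited table. With the trend removed the median of those 15 genes was -0.34. As the median of -0.41 was over 18 genes, part of the move comes with the change of gene set.

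**Figure D4:**
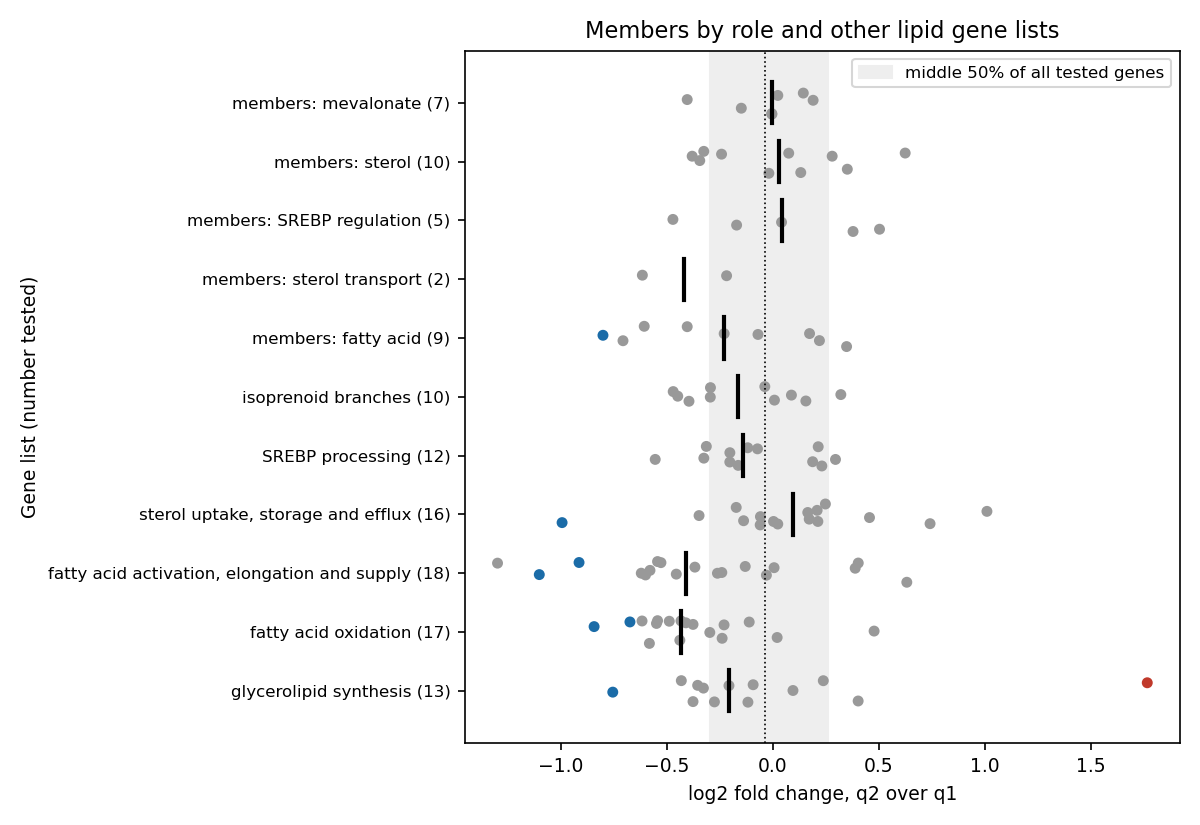
Members by role and 6 other lipid gene lists (y axis, with the number tested) by log2 fold change in q2 over q1 per the authors' deposited table (x axis). Each point is 1 gene, blue if called lower, red if called higher and grey if not called, black bars are list medians, the grey band is the middle 50% of all tested genes (-0.30 to 0.26) and the dotted line is their median; the medians of fatty acid oxidation (-0.43) and of fatty acid activation, elongation and supply (-0.41) lie outside that band, as does that of the 2 sterol transport members (-0.42).

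Markers of glial cells were read beside the members. Of 7 tested astrocyte markers 5 were called lower in q2 and 0 higher, with a median of -0.87, where 3.9% of all genes were called lower. Aqp4 was at -2.70 and Gfap at -2.06 per the authors' deposited table (Cuffdiff q = 0.00162 for both). Of 8 tested oligodendrocyte lineage markers 3 were called lower and 1 higher, among them Pdgfra at -2.83, Gpr17 at -1.42 and Mbp at 1.75 per the authors' deposited table. Among the neural stem cell markers Fabp7 at -1.13 and Hes5 at -0.82 were called lower and Nes at 0.75 higher per the authors' deposited table. After removal of the GC trend, with p read from the statistic, Mbp and Nes no longer passed, at 1.61 and 0.62 (adjusted q = 0.0824 and 0.0706), and Olig2 was called lower at -0.80 (adjusted q = 0.0127; -0.53 per the authors' deposited table), so that 4 oligodendrocyte lineage markers were lower and 0 higher. Of the 22 genes of these other lists that Cuffdiff called, all 22 passed with p read from the statistic alone, Mbp at an adjusted q of 0.0470, and 17 passed with the GC trend also removed. Of 4 tested neuron markers 1 was called higher and 1 lower. Only 2 of 5 microglia markers, 1 of 5 endothelial and pericyte markers and 2 of 6 fibroblast markers were tested, and of these Fn1 was called higher, at 1.78 per the authors' deposited table. In bulk RNA, fewer cells of a type and less RNA per cell cannot be told apart, and the part of glial cells in the values of Scd2, Fads1, Fads2 and Abca1 was not tested.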

How the data were processed

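RNA was measured in 4 libraries of mouse neural stem cells, grouped by sample title. Reads had been processed with TopHat2 2.0.9, Cufflinks 2.2.1 and Cuffdiff on build mm10 (GRCm38), per the submitters' processing notes; for the annotation, the filters and strandedness, the choice is not given in the sources used here. The authors deposited 1 table. Its log2 fold changes are log2 of q2 over q1, per the file headers. The deposited statistic is a score computed by the authors, and the deposited p-values and q-values come from their Cuffdiff run, with q adjusted over all tested entries. The 2 columns of per-condition values match no labelled group and were not used, so read depth, and with it the precision of a value, is unknown. Replicates are passages, per the labels, so any replicate spread behind the p-values is that between those cultures, which may be technical. How Cuffdiff estimated that spread is not given in the sources used here, so a gene's p may not measure its own spread.

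Members were matched by symbol and starts converted to count from 1. Left out of gene-level counts were 2904 entries without a symbol and those with several or repeated symbols. The 34 members, the other lists and the rule for named genes were chosen with earlier results of these data known. Members called, or with an unadjusted p under 0.05, and the 5 SREBP regulators are given in full, other members by value, and of other lists up to 3 called genes per direction; further genes in those lists, the neighbours on chromosome 19, overlapping entries and Acat3 were named after their values were seen. Of the listed marker genes 1 is not reported here. Median GC content over transcripts came from GENCODE M21, in 50 bins for trend removal; 4 list genes were matched by an older symbol from RefSeq GRCm38.p6. Alternatives to the calls were q under 0.01 or 0.1, a log2 fold change of at least 1, a normal p, adjustment over single-symbol entries, centring, loci that overlap no other entry, and removal of GC or length trends; reading p from the authors' own relation of p to statistic (isotonic regression) was added after seeing the data. Procedures were tested on simulated data. Computation was in Python 3.11.15 with pandas 2.3.3, numpy 2.4.6, scikit-learn 1.9.0, scipy 1.17.1 and, for plots, matplotlib 3.10.9.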

Additional observations from a re-analysis of the deposited data

How the results depend on the processing

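The main count was 1 member called, 1 lower and 0 higher. At q under 0.01, with an absolute log2 fold change of at least 1, and with a normal p (from the statistic, after centring, or after removal of the GC or length trend) the counts were 0 called, 0 lower and 0 higher; a normal p also left 371 called genes in place of 1089 over the whole table, or 388, 318 and 371 after centring and removal of the GC and length trends. At q under 0.1, 5 members were called, 4 lower and 1 higher, the additions being Fads1, Fads2, Npc1 and Hsd17b7. Adjusting over single-symbol entries gave 2 called, 2 lower, as Fads1 joined Scd2 at q = 0.0477. Reading p from the authors' own relation, chosen after seeing the data, gave 0 called and 0 lower. With the GC trend also removed it gave 2 called, Hsd17b7 higher (1) and Fads1 lower (1). With the length trend removed it gave 1 called, Hsd17b7, with 1 higher and 0 lower (adjusted q = 0.0497). Scd2 had a q of 0.0219 as deposited and of 0.0186 to 1 in the alternatives that recomputed it. For the 10 members followed singly (those with an unadjusted p under 0.05 and the 5 regulators) the 75 other values kept their direction and their side of the threshold; of the other members Fasn, Mvd, Msmo1 and Acat2 changed sign with the GC trend removed. The median of the 2 sterol transport genes went from -0.42 to -0.28 with the GC trend removed and to -0.22 over loci of their own, where Stard4 alone was left; no other group's median moved by 0.1. The cause of these changes was not tested, except that stricter thresholds call fewer genes by construction. No paired analysis was possible because the table holds 1 comparison of pooled conditions and no values per library; for the same reason no replicate was left out and no pseudocount was varied.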

Other observations

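Fatty acid oxidation breaks down what synthesis builds, and it appears above only in the plot of gene lists. Of its 17 tested genes 15 had values below 0 (88.2%, against 53.6% of all genes with a finite value). Their median was -0.43 against -0.04 for all genes. The median of the 9 fatty acid members was also below 0, at -0.23. Of the 17, 2 were called lower and 0 higher (3.9% and 5.06% of all genes). An unadjusted p under 0.05 was found for 7 (41.2%, against 21.5% of all genes), 6 lower and 1 higher. Cpt1a, which carries long-chain acyl groups into mitochondria, was 1.79-fold lower (Cuffdiff q = 0.00630) and the thiolase Acaa2 1.60-fold lower (Cuffdiff q = 0.0419) in q2 per the authors' deposited table. After removal of the GC trend, with p read from the statistic, Cpt1a kept its call at -0.86, Acaa2 at -0.60 did not pass (adjusted q = 0.104), and the median was -0.39. With p read in that way and no trend removed Acaa2 passed narrowly, at an adjusted q of 0.0470. The brain form Cpt1c was at 0.48 per the authors' deposited table (Cuffdiff q = 0.229).

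Of 13 tested glycerolipid genes 1 was called higher and 1 lower, where 8.96% of all genes were called, with a median of -0.21 against -0.04 for all genes. Agpat2, an acyltransferase of phosphatidic acid synthesis, was 3.40-fold higher in q2 per the authors' deposited table (implied error 0.71, Cuffdiff q = 0.0345). Gpam, the mitochondrial enzyme of the preceding step and a known SREBP-1 target, was 1.69-fold lower (Cuffdiff q = 0.0142) per the authors' deposited table. After the same removal Agpat2 stood at 1.51 and did not pass (adjusted q = 0.0573; 0.0148 with p read from the statistic alone), while Gpam kept its call at -0.70.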
